A study of Rattus norvegicus with 12 samples.

Results

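The nuclei described here are those that the authors' annotation of single-nucleus RNA sequencing of the rat kidney places in the cluster AA/LA/EA, named for the afferent arteriole, large artery and efferent arteriole. All nuclei with that cluster name were taken, 1007 of 217132 nuclei (0.464%), which made it the 20th of 25 clusters by size. Kidneys came from 12 male ZSF1 rats, 3 in each of 4 groups. Lean rats were untreated (rats RK1_4, RK3_4 and RK5_4). Obese rats received vehicle (RK7_4, RK9_4 and RK16_4), the soluble guanylate cyclase (sGC) activator BAY 1101042, also called Runcaciguat and written sGCact, at 3 mg/kg 2 times a day (RK43_4, RK45_4 and RK46_4), or the sGC stimulator BAY 1165747, written sGCstim, at 3 mg/kg 1 time a day (RK57_4, RK58_4 and RK61_4). Treatment started at 13 to 14 weeks of age and lasted 12 weeks. The labels give lean and obese rats the same genotype string, ZSF1-LeprfaLeprcp/Crl, while the study treats lean and obese as different genotypes. The lean rats received no vehicle, so genotype, obesity and dosing with vehicle cannot be told apart. The study assigned 6 animals to the lean group and 10 to each obese group, and 3 of each group were sequenced.

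Arteries and arterioles of the kidney are lined by endothelium that lies against smooth muscle, whereas the glomerular tuft between the afferent and efferent arteriole is a bed of fenestrated capillaries. The afferent arteriole brings blood to the tuft and the efferent arteriole drains it, and the tone of both sets glomerular pressure. Endothelial nitric oxide synthase produces nitric oxide, which diffuses to the neighbouring smooth muscle and pericytes and binds sGC there, and the cGMP that sGC makes relaxes the vessel. Activators act on sGC that has lost or oxidised its heme, and stimulators act on sGC with intact heme, together with nitric oxide. Pecam1 encodes an adhesion molecule at endothelial cell contacts and marks endothelium of all vessels.

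The deposited table gives for each nucleus its rat, cluster, number of unique molecular identifiers (UMIs, each standing for 1 captured transcript molecule), number of expressed genes, percentage of UMIs from mitochondrial genes, cell-cycle scores and position in the embedding. Levels of single genes were not analysed here, so the name of the cluster was not checked against Pecam1 or any other gene. The name and the endothelial type both come from the authors' annotation, so the type does not test the name. All 1007 nuclei belonged to the endothelial type, of which they made up 7.24% of 13909 nuclei. The other endothelial nuclei were GEC(Meis2+), a cluster of glomerular endothelial cells with 89.9% of the type, and GEC(Reln+) with 2.83%. The retained nuclei of a rat numbered from 10488 in RK46_4 to 43484 in RK9_4. Per the study's methods 10000 nuclei were loaded per sample, and every rat retained more than that. The reason was not tested. The AA/LA/EA nuclei of a rat held from 16785 UMIs in RK7_4 to 551220 in RK1_4, so that the values of RK7_4 are the least precise.

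In the embedding the cluster formed 1 group beside GEC(Meis2+). Of the 15 nearest nuclei of an AA/LA/EA nucleus, a mean of 87.3% were AA/LA/EA and 12.3% GEC(Meis2+), and 0% were GEC(Reln+). By the distance between centres, GEC(Reln+) was nearer, at 3.81 embedding units against 4.82 for the larger GEC(Meis2+). Most neighbours were of the own cluster for 910 nuclei (90.4%). For the other 97 nuclei, 70.7% of the neighbours were GEC(Meis2+), and these nuclei had a median of 877 UMIs against 1326 in the 910. The share of nuclei with mostly own neighbours was lowest in the sGCstim-treated rat RK58_4 (75.4%) and highest in RK61_4 of the same group (97.3%). Only 3 nuclei lay more than 5 embedding units from the centre, 2 of RK3_4 and 1 of RK46_4. The clusters were defined on the same transcripts as the embedding, so these values describe the cluster and do not test it.

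**Figure D1:**
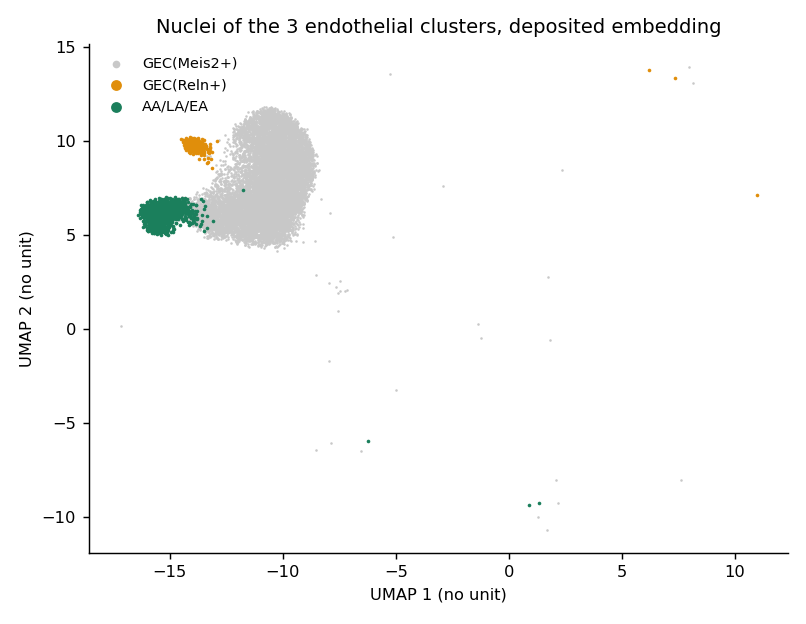
Position of each nucleus of the 3 endothelial clusters on the 2 axes of the deposited embedding, which have no unit. AA/LA/EA nuclei (green) sit at the edge of the larger GEC(Meis2+) cluster (gray) and apart from GEC(Reln+) (orange), with 3 green nuclei far from the rest.

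The cluster was unevenly filled by the rats. Lean rats gave 484 nuclei (48.1% of the cluster), obese rats on vehicle 166 (16.5%), sGCact-treated rats 171 (17.0%) and sGCstim-treated rats 186 (18.5%). RK1_4 alone gave 249 nuclei (24.7%). The number was 111 in RK3_4 and 124 in RK5_4 among lean rats, 18 in RK7_4, 26 in RK9_4 and 122 in RK16_4 among obese rats on vehicle, 67, 45 and 59 in RK43_4, RK45_4 and RK46_4 under sGCact, and 50, 61 and 75 in RK57_4, RK58_4 and RK61_4 under sGCstim. No cell barcode was shared between rats within the cluster, and 52 members (5.16%) had a barcode that another rat also used, against 5.42% of all nuclei.

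The first comparison asked whether AA/LA/EA nuclei made up another share of the kidney nuclei in obese than in lean rats. AA/LA/EA nuclei were 1.49% of all nuclei in RK1_4 (95% Wilson interval 1.32 to 1.69), 0.732% in RK3_4 and 0.733% in RK5_4. In obese rats on vehicle they were 0.171% in RK7_4 (0.108 to 0.269), 0.0598% in RK9_4 (0.0408 to 0.0876) and 0.930% in RK16_4 (0.779 to 1.11). RK7_4 and RK9_4 lay below all lean rats, while RK16_4 lay above RK3_4 and RK5_4, so the groups overlapped. These intervals cover counting error only. Lean rats had a mean of 0.986% ± 0.439 (SD, n = 3), obese rats one of 0.387% ± 0.474 (SD, n = 3), and 7 of 9 pairings of an obese and a lean rat had the lower share in the obese rat. The log odds, that is the natural log of nuclei inside over nuclei outside the cluster, differed by -1.47 (SE 0.618), an odds ratio of 0.229 (95% interval 0.0603 to 0.873). This did not pass the threshold of 0.05 after adjustment over the 25 clusters (adjusted p = 0.153 from limma, unadjusted p = 0.0333; two-sided p = 0.3 from the exact permutation of the shares, where 3 rats against 3 cannot go below 0.1). Among all clusters, 12% passed in this contrast. Without RK16_4 the difference was -2.21 and passed (adjusted p = 0.00313 from limma), which assumes that the 2 remaining rats vary like the other groups. The share of all clusters that passed without RK16_4 was not counted.

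Nearby cell types gave estimates in the same direction. The log odds difference between obese and lean rats was -1.32 for GEC(Meis2+) (adjusted p = 0.153 from limma), -0.902 for SMC/Peri, the smooth muscle cells and pericytes (adjusted p = 0.358), -0.602 for Fib/Peri, the fibroblasts and pericytes (adjusted p = 0.389), and -0.439 for GEC(Reln+) (adjusted p = 0.574). Over all 25 clusters the median difference was -0.66, and 4 clusters had a lower value than AA/LA/EA. A share also depends on how many nuclei the other types gave. Proximal tubule nuclei were 75.8% of the nuclei of RK7_4 and 92.1% of those of RK9_4, against 37.8% in RK16_4 and 38.0% to 45.7% in lean rats. Counted among nuclei outside the proximal tubule, the AA/LA/EA difference was -0.52 (adjusted p = 0.253 from limma).

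Under treatment the shares lay within the range of the obese rats on vehicle. They were 0.316% in RK43_4, 0.208% in RK45_4 and 0.563% in RK46_4 under sGCact, and 0.405% in RK57_4, 0.498% in RK58_4 and 0.322% in RK61_4 under sGCstim. All 6 treated rats lay below the lowest lean rat. The share of all clusters with such a separation of treated from lean rats was not counted. With the vehicle rats included, every rat of the obese groups lay below every lean rat in 12% of the clusters. AA/LA/EA was not among these clusters, because RK16_4 overlapped with the lean rats. The sGCact mean was 0.362% ± 0.182 (SD, n = 3), and the sGCstim mean was 0.408% ± 0.0880 (SD, n = 3). Relative to vehicle, the log odds differed by 0.45 under sGCact (95% interval -0.89 to 1.78, adjusted p = 0.627 from limma) and by 0.63 under sGCstim (-0.70 to 1.97, adjusted p = 0.677). These contrasts share the vehicle group, and in either of them 0% of all clusters passed, with 0 at an unadjusted p under 0.05. Both estimates moved with single rats. Without RK9_4 they were -0.19 under sGCact and 6.2e-05 under sGCstim, and without RK16_4 they were 1.18 and 1.37 (adjusted p = 0.0524 and adjusted p = 0.0765 from limma). Without RK46_4 the estimate under sGCact was 0.18. The difference between sGCact and sGCstim, which were given at different numbers of doses a day, was -0.19 (-1.52 to 1.15, adjusted p = 0.964), and the intervals leave room for odds ratios from 0.218 to 3.16.

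The 9 rats of the 3 obese groups were also set against the 3 lean rats, which mixes vehicle with both drugs. The share of all nuclei was lower in the obese rat in 25 of 27 pairings with a lean rat, and the log odds differed by -1.11 (SE 0.505, adjusted p = 0.231 and unadjusted p = 0.0462 from limma; two-sided p = 0.0364 from the exact permutation of the shares). In this contrast 4% of the clusters passed. Without RK16_4 the difference was -1.36 and passed (adjusted p = 0.0103 from limma), and the share of all clusters that then passed was not counted.

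**Figure D2:**
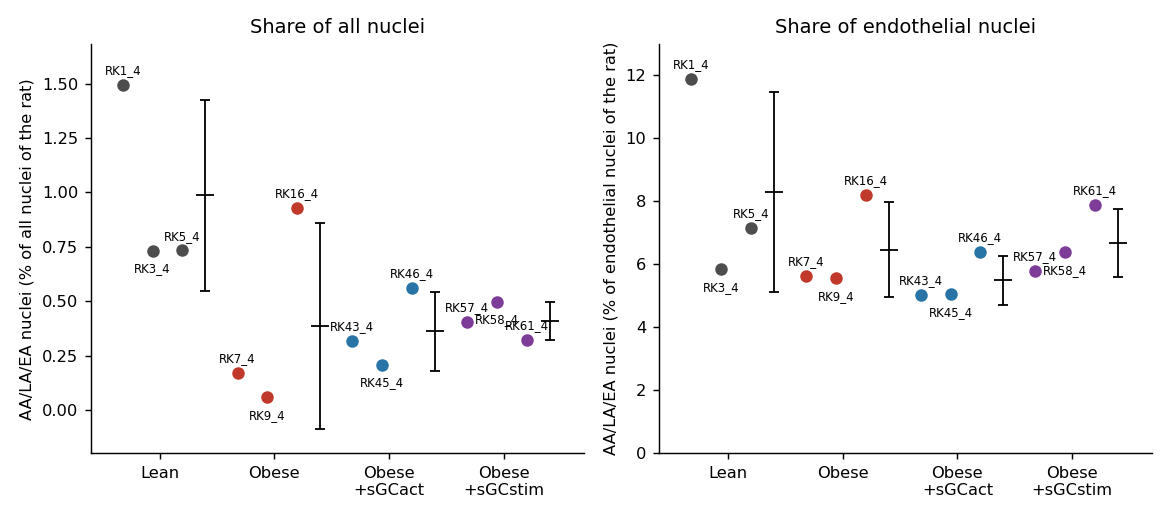
Share of AA/LA/EA nuclei among all nuclei (left) and among endothelial nuclei (right), in percent, for each of the 12 rats (points) with the mean and SD of each group of 3 rats (bars beside them). On the left RK16_4 at 0.930% is the 1 obese rat above RK3_4 and RK5_4, and on the right RK1_4 at 11.9% stands above the other 11 rats, which lie between 5.03% and 8.21%.

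Within the endothelium the rats were closer together. AA/LA/EA nuclei were 11.9% of endothelial nuclei in RK1_4 (95% Wilson interval 10.6 to 13.3), 5.85% in RK3_4 and 7.16% in RK5_4. Among obese rats on vehicle they were 5.64% in RK7_4 (3.6 to 8.74), 5.57% in RK9_4 (3.83 to 8.03) and 8.21% in RK16_4. All 3 values lay within the lean range or just below it, although the endothelial share of all nuclei was 1.07% for RK9_4, 3.02% for RK7_4 and 11.3% for RK16_4. They were 5.03%, 5.05% and 6.40% in RK43_4, RK45_4 and RK46_4 under sGCact, and 5.79%, 6.39% and 7.88% in RK57_4, RK58_4 and RK61_4 under sGCstim. The mean was 8.30% ± 3.18 (SD, n = 3) in lean rats, 6.47% ± 1.5 (SD, n = 3) on vehicle and 5.49% ± 0.786 (SD, n = 3) under sGCact. Rats under sGCstim had a mean of 6.69% ± 1.07 (SD, n = 3).

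The differences within the endothelium were within the spread between rats. Obese rats on vehicle differed from lean rats by -1.83 percentage points (exact two-sided permutation test, p = 0.5), sGCact from vehicle by -0.98 (p = 0.5), sGCstim from vehicle by 0.22 (p = 0.8) and sGCact from sGCstim by -1.20 (p = 0.3). The 3 obese groups differed from lean rats by -2.08 points (exact permutation p = 0.182), and the adjusted p over the 5 contrasts was 0.625 or above for each. The lean mean rested on RK1_4. Without it the obese rats on vehicle differed from the lean rats by -0.034 points and the 3 obese groups by -0.29 points. The difference of sGCact from vehicle was -0.11 points without RK16_4 and -1.43 without RK9_4 or without RK46_4. The variance of the share between rats relative to counting error (chi-square per degree of freedom) was 26.1 in lean rats and 2.57 without RK1_4, against 2.59 on vehicle, 1.18 under sGCact and 1.69 under sGCstim, where 1 is counting error alone.

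The share within the endothelium was set against 2 other measures of a rat, its depth and its proximal tubule share, over the 12 rats. Its Pearson correlation with the median UMIs per nucleus of the rat was 0.687 (permutation p = 0.0251, adjusted p = 0.0502 over the 2 relations) and Spearman's rho was 0.559 (p = 0.0627). Without RK1_4 alone r was 0.177 (permutation p = 0.598), so the linear relation rests on this rat. The rank relation weakened less, with a rho of 0.427 without RK1_4 (permutation p = 0.19). Without RK1_4 and RK7_4, the 2 rats farthest from the median depth, r was 0.103 and rho 0.321. Over the 9 rats of the obese groups r was 0.233 (permutation p = 0.528) and rho 0.45 (permutation p = 0.232). With the proximal tubule share of the rat, r was -0.436 (permutation p = 0.153) and rho -0.629 (p = 0.0331, adjusted p = 0.0627). Without RK9_4 and RK7_4 r was -0.369 and rho -0.503, and within the obese groups they were -0.385 and -0.5. Without RK1_4 r was -0.406 and rho -0.591.

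AA/LA/EA nuclei were next counted against the other endothelial clusters and against smooth muscle of the same rat, ratios that do not depend on tubule nuclei. The ratios to the endothelial clusters were added after the shares were seen. Per 100 GEC(Meis2+) nuclei there were 13.8 AA/LA/EA nuclei in RK1_4, 6.31 in RK3_4 and 7.80 in RK5_4, and between 5.55 in RK43_4 and 9.28 in RK16_4 in the obese groups. The 3 obese groups differed from lean rats by -0.36 on the log2 scale (exact two-sided permutation test, p = 0.227, adjusted p = 0.455), and the groups overlapped. This difference was -0.036 without RK1_4 and -0.60 without RK3_4.

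With all nuclei counted, the ratio to GEC(Reln+) separated the rats of the obese groups from the lean rats, but not vehicle from sGCstim. There were 5.53 AA/LA/EA nuclei for each GEC(Reln+) nucleus in RK1_4, 4.11 in RK3_4 and 6.89 in RK5_4. Obese rats on vehicle had 1.80 in RK7_4, 1.63 in RK9_4 and 2.44 in RK16_4, sGCact-treated rats 1.12 in RK43_4, 1.10 in RK45_4 and 1.48 in RK46_4, and sGCstim-treated rats 2.38 in RK57_4, 1.69 in RK58_4 and 2.59 in RK61_4. All 9 rats of the obese groups lay below all 3 lean rats, and the 3 sGCact-treated rats lay below all other rats. The share of ratios that set the sGCact-treated rats apart from all other rats was not counted. Counts behind the ratio were low, with 18 to 45 GEC(Reln+) nuclei in a lean rat and 10 to 60 in a rat of the obese groups.

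On the log2 scale the ratio to GEC(Reln+) differed between the 3 obese groups and lean rats by -1.63, a 0.322-fold ratio (27 of 27 comparisons of rats lower; two-sided p = 0.00909 from the exact permutation test, the smallest that 9 rats against 3 allow). The adjusted p over the 10 tests of both endothelial ratios was 0.0909, above the threshold. Vehicle against lean gave -1.48 (9 of 9 lower), sGCact against vehicle -0.64 (9 of 9 lower) and sGCact against sGCstim -0.83 (9 of 9 lower), each with p = 0.1, the smallest that the exact permutation test of 3 rats against 3 allows, and an adjusted p of 0.25. sGCstim against vehicle gave 0.19 (6 of 9 higher; exact permutation p = 0.5). With each rat left out in turn, the difference of the 3 obese groups from lean rats stayed between -1.83 and -1.46. Among nuclei with at least 1000 UMIs it was -1.51, and with at most 1% mitochondrial UMIs it was -1.99, and under either filter the obese groups overlapped with the lean rats. The direction of sGCact against vehicle turned to 0.22 among nuclei with at most 1% mitochondrial UMIs.

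Such a separation was not rare among ratios. Of the ratios of AA/LA/EA to each of the 24 other clusters, 20.8% had all 9 rats of the obese groups below all lean rats. These were the ratios to GEC(Reln+), Immune, PCT(Spp1+), PST(Spp1+) and PTinj, the last 3 being proximal tubule clusters, and the names other than GEC(Reln+) were picked after their values were seen. Over all 300 pairs of clusters, 19% of the ratios separated the 9 rats from the lean rats in either direction, and 32.7% separated vehicle from lean rats. For the AA/LA/EA ratios of obese rats on vehicle against lean rats the share below was 33.3%, for sGCact against vehicle 25% and for sGCact against sGCstim 20.8%. GEC(Reln+) nuclei were 1.04% to 2.15% of the endothelial nuclei of lean rats and 3.13% to 3.43% on vehicle. They were 4.34% to 4.60% under sGCact and 2.43% to 3.77% under sGCstim. The AA/LA/EA share of the endothelium overlapped between groups, with a mean of 8.30% in lean rats and 6.22% in the 3 obese groups. How far each of these shares moved the ratio was not tested.

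Against SMC/Peri, the mural cells that lie next to arterial endothelium, there were 2.13 AA/LA/EA nuclei for each mural nucleus in RK1_4, 1.52 in RK3_4 and 1.39 in RK5_4. The ratio was 1.5, 0.578 and 0.953 in RK7_4, RK9_4 and RK16_4 on vehicle, 1.06, 0.542 and 1.31 in RK43_4, RK45_4 and RK46_4 under sGCact, and 1.16, 1.53 and 1.03 in RK57_4, RK58_4 and RK61_4 under sGCstim. Lean rats were high but overlapped with RK7_4 and RK58_4. The 3 obese groups differed from lean rats by -0.70 on the log2 scale, a 0.615-fold ratio (24 of 27 comparisons lower; exact two-sided permutation test, p = 0.0455, adjusted p = 0.227). Vehicle against lean gave -0.82 (p = 0.2), sGCact against vehicle -0.039 (p = 0.9), sGCstim against vehicle 0.38 (p = 0.4) and sGCact against sGCstim -0.42 (p = 0.5), all by exact permutation. With at most 1% mitochondrial UMIs the difference of the 3 obese groups from lean rats was -0.19.

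**Figure D3:**
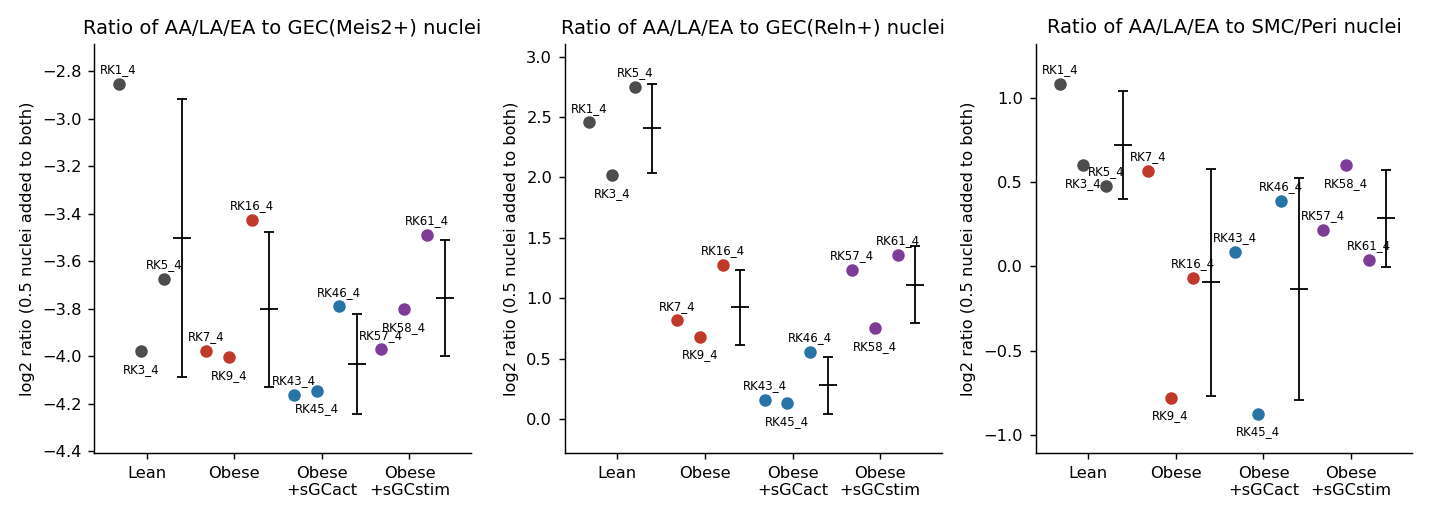
Log2 ratio of AA/LA/EA nuclei to GEC(Meis2+), GEC(Reln+) and SMC/Peri nuclei of the same rat, with 0.5 nuclei added to both counts, for each rat (points) and as group mean and SD (bars, n = 3). In the middle panel all 9 rats of the obese groups lie below the 3 lean rats, and in the outer panels the groups overlap.

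The amount of RNA captured per AA/LA/EA nucleus differed between rats. Over the cluster a nucleus had from 435 to 4691 UMIs and from 377 to 2096 expressed genes, with medians of 1278 and 899. The median was 2134 UMIs in RK1_4, 1490 in RK3_4 and 1058 in RK5_4 among lean rats, and 964 in RK7_4, 1260.5 in RK9_4 and 950 in RK16_4 on vehicle. It was 1278, 983 and 1059 in RK43_4, RK45_4 and RK46_4 under sGCact and 1005.5, 1011 and 1173 in RK57_4, RK58_4 and RK61_4 under sGCstim. RK1_4 and RK3_4 lay above all 9 rats of the obese groups, and RK5_4 lay among them. Of the 190 members with over 2000 UMIs, 146 came from RK1_4, and 8 members exceeded the cluster median more than 3 times.

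Median UMIs differed between obese rats on vehicle and lean rats by -0.51 on the log2 scale (SE 0.268, adjusted p = 0.191 from limma over 24 clusters; exact permutation p = 0.2), and 16.7% of the clusters passed. For the 3 obese groups against lean rats the difference was -0.49 (SE 0.219, adjusted p = 0.0924 and unadjusted p = 0.0399 from limma; 23 of 27 comparisons lower, exact permutation p = 0.0455), and 12.5% of the clusters passed. Single lean rats decided these values. Without RK5_4 the differences were -0.77 and -0.74 and passed (adjusted p = 0.0335 and adjusted p = 0.0226 from limma), and without RK1_4 they were -0.26 and -0.23. The share of all clusters that passed without RK5_4 was not counted. Between treated and vehicle rats the differences were 0.068 under sGCact (95% interval -0.50 to 0.63) and 0.016 under sGCstim (-0.55 to 0.58), and neither passed. Of all clusters 4.17% passed under sGCact and 0% under sGCstim, and 4.17% between sGCact and sGCstim.

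Depth of the AA/LA/EA nuclei was also read against the other endothelial nuclei of the same rat, which shared its library. The ratio of median UMIs was 1.20, 1.18 and 0.980 in RK1_4, RK3_4 and RK5_4, 0.948, 0.790 and 1.07 in RK7_4, RK9_4 and RK16_4, 1.42, 0.891 and 1.18 in RK43_4, RK45_4 and RK46_4, and 1.31, 0.917 and 0.824 in RK57_4, RK58_4 and RK61_4. It was above 1 in 6 of 12 rats and in all 4 groups the rats lay on both sides of 1. Vehicle against lean gave -0.27 on the log2 scale (exact permutation p = 0.2), the 3 obese groups against lean -0.13 (p = 0.482), and no contrast had an adjusted p under 0.70.

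Expressed genes per nucleus followed the UMIs. The median was 1344, 1025 and 745 genes in RK1_4, RK3_4 and RK5_4 and ranged from 673.5 in RK7_4 to 890 in RK9_4 over the obese groups. The log2 difference was -0.42 for vehicle against lean (adjusted p = 0.153 from limma) and -0.36 for the 3 obese groups against lean (adjusted p = 0.112), with 20.8% and 12.5% of the clusters passing. No contrast between the obese groups passed, where 8.33% of the clusters passed for sGCact against vehicle and 4.17% for sGCact against sGCstim. Without RK5_4 the differences of vehicle and of the 3 obese groups from lean were -0.63 and -0.58 and passed (adjusted p = 0.0232 and adjusted p = 0.0215 from limma). The share of all clusters that then passed was not counted. Without RK1_4 the difference of vehicle from lean was -0.21. Among members with 1000 to 2000 UMIs the median was 1135, 1025 and 878.5 genes in RK1_4, RK3_4 and RK5_4 and 773.5 to 967.5 in the obese groups, where RK7_4 had 6 such nuclei. Their own median UMIs still ran from 1694 in RK1_4 to 1063 in RK7_4, and the difference of vehicle from lean was -0.25 (adjusted p = 0.0992 from limma).

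**Figure D4:**
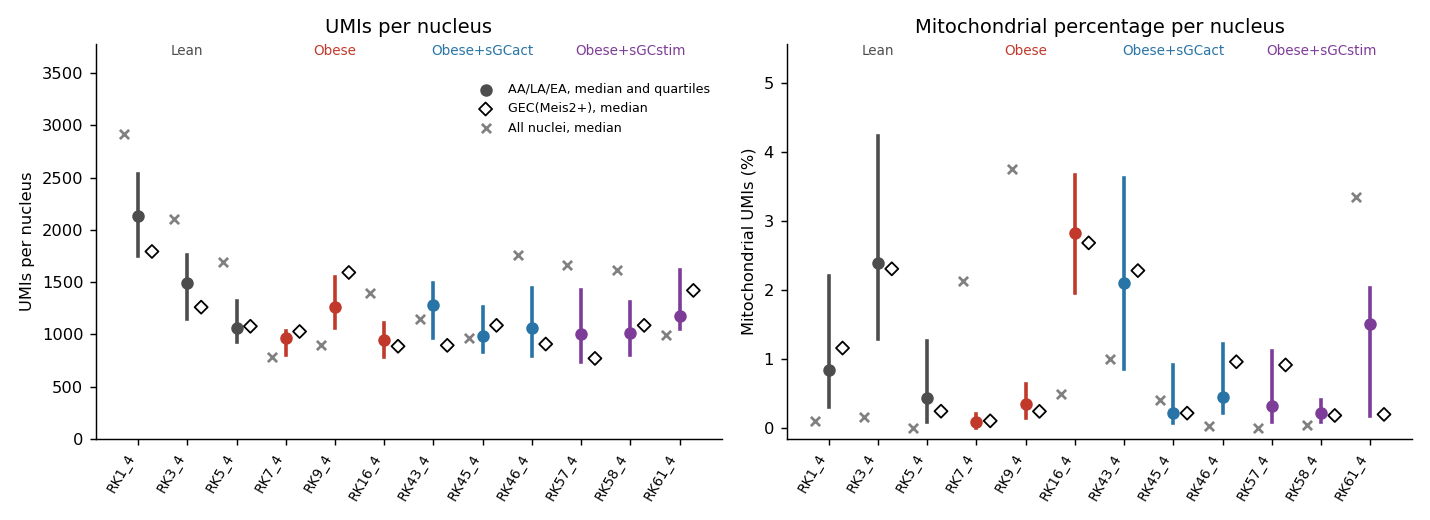
UMIs per nucleus (left) and percentage of mitochondrial UMIs (right) for each rat: median and quartiles of AA/LA/EA nuclei (filled points and lines), median of GEC(Meis2+) (open diamonds) and of all nuclei of the rat (crosses). RK1_4 is highest in UMIs at 2134, and in mitochondrial percentage the AA/LA/EA median is close to that of GEC(Meis2+) in most rats but not in RK61_4, where they are 1.51% and 0.203%.

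The mitochondrial percentage of the cluster varied widely between rats of a group. Mitochondrial transcripts lie outside the nucleus and reach a nuclear library as carried-over cytoplasmic RNA. The median over AA/LA/EA nuclei was 0.846% in RK1_4, 2.39% in RK3_4 and 0.433% in RK5_4 among lean rats, and 0.0993% in RK7_4, 0.360% in RK9_4 and 2.83% in RK16_4 on vehicle. It was 2.10% in RK43_4, 0.230% in RK45_4 and 0.462% in RK46_4 under sGCact, and 0.323% in RK57_4, 0.217% in RK58_4 and 1.51% in RK61_4 under sGCstim. Each group held both low and high rats. Vehicle against lean gave -0.74 on the scale of log2(percentage + 0.1) (SE 1.13, adjusted p = 0.805 from limma), and the lowest adjusted p of the 5 contrasts was 0.779. Of all clusters 4.17% passed for sGCact against vehicle and for sGCact against sGCstim, and 0% in the other contrasts. At least 1 mitochondrial UMI was found in all but 71 members (7.05%), and the highest value was 14.1%.

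The mitochondrial percentage of the cluster was nearer to that of other endothelial nuclei of the rat than to that of the whole library in 10 of 12 rats. In GEC(Meis2+) the median was 0.110% in RK7_4, 0.247% in RK9_4 and 2.68% in RK16_4, close to AA/LA/EA in each of these rats. Over all nuclei of the rat it was 2.13% in RK7_4, 3.74% in RK9_4 and 0.497% in RK16_4, so that RK16_4, the highest of these rats in the endothelium, was the lowest over all nuclei. Over the 12 rats the AA/LA/EA median differed from that of GEC(Meis2+) by -0.595 points in RK57_4 to 1.31 points in RK61_4, and from that of all nuclei by -3.38 to 2.33 points. Within a rat, nuclei with more UMIs had a lower mitochondrial percentage in 11 of 12 rats, with Spearman's rho from -0.771 in RK46_4 to 0.0864 in RK7_4, given as a description since both values share the UMI total.

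**Figure D5:**
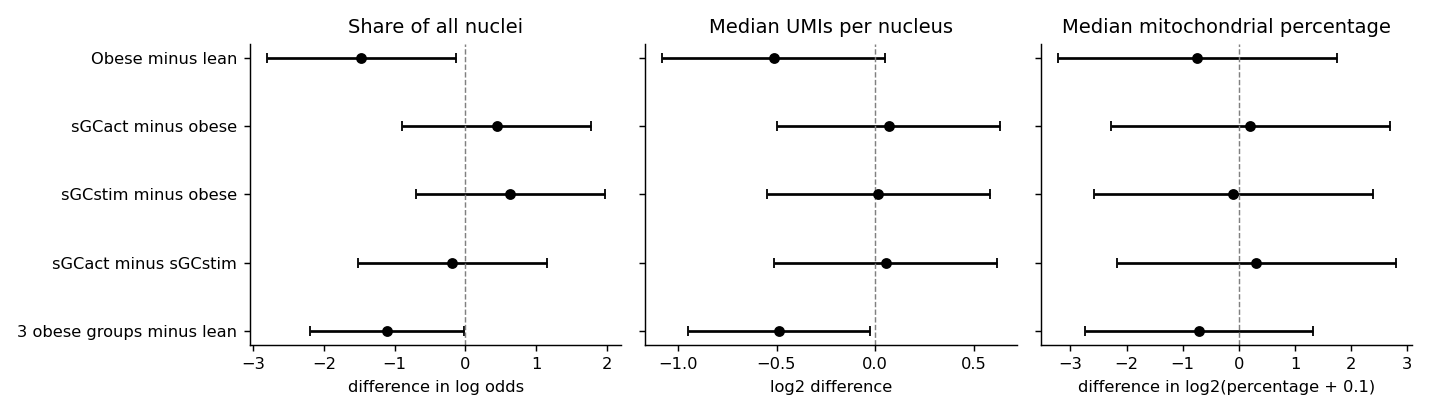
Estimated difference (points) and 95% interval (lines) from limma for AA/LA/EA in the 5 contrasts: share of all nuclei in log odds, median UMIs on the log2 scale, and median mitochondrial percentage on the scale of log2(percentage + 0.1). The share and the UMIs have their largest negative estimates in the contrasts against lean rats, at -1.47 and -0.51 for vehicle, and all estimates between treated and vehicle rats have intervals that include 0.

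Cell-cycle scores of the cluster stayed near 0. The S and G2M scores compare the expression of genes of DNA replication and of mitosis with control genes, and they had a median of -0.0166 and -0.00333 over the members. By the median over rats of the mean score, AA/LA/EA was highest of the 25 clusters for G2M (-0.00057). The next was PST(Spp1+) at -0.00076. For the S score AA/LA/EA ranked 21st (-0.0037). The annotation called 326 members G1 (32.4%), 320 S (31.8%) and 361 G2M (35.8%), against 34%, 33.8% and 32.2% of all nuclei, and 61.4% of the members had both scores within 0.05 of 0, where a phase call rests on small differences. A score over 0.1 was found in 56 members (5.56%), against 4.47% of all nuclei. No cycling can be read from such calls. The mean S score differed between sGCact and vehicle by -0.0086 (-0.0078 ± 0.0039 against 0.00074 ± 0.0071, SD, n = 3; adjusted p = 0.357 and unadjusted p = 0.0511 from limma), and was lower in 8 of 9 pairings of rats. In that contrast 0% of the 24 clusters passed for the S score, and 2 had an unadjusted p under 0.05 from limma. No contrast of the S or G2M score passed for AA/LA/EA. For the G2M score, 25% of the clusters passed between vehicle and lean rats and 4.17% between the 3 obese groups and lean rats.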

How the data were processed

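Nuclei from frozen kidneys of 12 rats were sequenced in droplets (3′ libraries with UMIs). The study's methods give 10000 nuclei loaded per sample, fewer than were retained from any rat. The submitters' processing notes name Cell Ranger 6, Seurat and the build rn6. Per the study's methods, the authors corrected ambient RNA, removed doublets, kept nuclei with 200 to 3000 genes and at most 15% mitochondrial UMIs, merged the rats, corrected batches and clustered. UMIs and expressed genes per nucleus are deposited as counts without normalization. The deposited mitochondrial measure is a percent of the UMIs of the nucleus. The S and G2M scores are the authors' module scores without a fixed range. The deposited phase calls, cluster names and embedding coordinates are values of another kind. Counts per gene were not used here, and 0 columns of per-sample values went unused.

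The rat was the replicate. Rats were assigned to groups by the group name in the table, which matches the sample labels. For shares, limma 3.58.1 (R 4.3.3) was fitted over 25 clusters and 12 rats on log odds with 0.5 nuclei added to the cluster and 1 to the total (8 residual degrees of freedom). For UMIs, genes, mitochondrial percentage (log2 of the percentage + 0.1, which understates changes of low values) and scores it was fitted over 24 clusters, leaving missing each rat and cluster with under 5 nuclei. No AA/LA/EA value was missing. P values were adjusted by Benjamini-Hochberg over the clusters of a contrast, with a threshold of 0.05. Shares within the endothelium and log2 ratios (0.5 nuclei added to both counts) were compared by exact two-sided permutation tests, adjusted over 5 contrasts, or over 10 tests for the added ratios to endothelial clusters. Correlations used 100000 resamples. Wilson intervals (95%) cover counting error only. Python 3.11.15 with scipy 1.17.1, numpy 2.4.6 and pandas 2.3.3 was used.

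The cluster, the neighbouring clusters and the tests were chosen with earlier results of these data known. Clusters named are the endothelial ones, SMC/Peri and Fib/Peri, and others where they hold an extreme value or complete a short count. Rats are named where they hold such a value or decide a call. The test of shares was tested on simulated data, drawn at the observed variation between rats, for the contrast of obese with lean. That variation already holds counting error, and numbers of nuclei were drawn on top of it, so counting error entered again. Over 25 clusters a log odds change of 2 was called for 53.8% of changed clusters and a change of 1 for 6.2%. These rates are averages over randomly chosen clusters and not rates for AA/LA/EA. Alternatives covered filters of 500 and 1000 UMIs and of 1% mitochondrial UMIs, a denominator without proximal tubule, arcsine square root, robust moderation, edgeR 4.0.16 quasi-likelihood tests on numbers of nuclei, the compared groups alone, means for medians, pseudocounts of 0.01 and 1, a minimum of 20 nuclei and each rat left out.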

Additional observations from a re-analysis of the deposited data

How the results depend on the processing

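No comparison of AA/LA/EA passed the threshold as reported, and the alternatives show how far the estimates moved. All differences are first minus second group, and "vehicle" is the obese group without drug. Depth limits the values of RK7_4 and RK9_4 most, with 18 and 26 nuclei. On average over clusters, a change of 1 in log odds was rarely called in simulated data. Filters and scales other than leaving out a rat gave 0 values past the threshold in every comparison. The filters on the ratios to GEC(Meis2+) and GEC(Reln+) were chosen after seeing the data. No paired analysis was possible because the rats carry no replicate number in the table.

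Some small differences changed sign, and the cause was not tested. With at least 20 nuclei per rat and cluster, which leaves out RK7_4, sGCstim against vehicle became -0.045 for UMIs, -0.012 for genes and -0.0049 for the G2M score, sGCact against vehicle became -0.0028 for genes and -0.65 for the mitochondrial percentage, and vehicle against lean became 0.11 for the mitochondrial percentage and -0.0023 for the S score. The share of all nuclei for sGCact against vehicle was -0.22 outside the proximal tubule and -0.065 by edgeR with total nuclei. With means over nuclei, sGCact against sGCstim was -0.031 for UMIs and -0.051 for genes, and sGCstim against vehicle 0.062 for the mitochondrial percentage. With the median S score, vehicle against lean was -0.00096. Among nuclei with 1000 to 2000 UMIs, sGCact against vehicle was -0.19 for the mitochondrial percentage and 0.0081 for the G2M score, sGCact against sGCstim -0.049 for the mitochondrial percentage and 0.00022 for the S score, and vehicle against lean -0.0036 for the G2M score. With pseudocounts of 0.01 and 1 the mitochondrial percentage was 0.0018 for sGCstim against vehicle and -0.013 for sGCact against vehicle. With at least 1000 UMIs, sGCact against vehicle was 0.98 points for the share of endothelium and 0.25 for the ratio to GEC(Meis2+), and sGCstim against vehicle -0.032 for the ratio to SMC/Peri. With at most 1% mitochondrial UMIs, sGCact against vehicle was 1.42 points for the share of endothelium and 0.14, 0.32 and 0.22 for the ratios to SMC/Peri, GEC(Meis2+) and GEC(Reln+), and sGCact against sGCstim 0.60 points and 0.19 for the ratio to GEC(Meis2+).

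With each rat left out in turn, the share of all nuclei ranged from -2.21 to -0.84 for vehicle against lean, -0.19 to 1.18 for sGCact against vehicle, 6.2e-05 to 1.37 for sGCstim against vehicle, -0.45 to 0.047 for sGCact against sGCstim and -1.36 to -0.87 for the 3 obese groups against lean. In the same order, UMIs ranged from -0.77 to -0.26, -0.040 to 0.20, -0.057 to 0.15, -0.056 to 0.13 and -0.74 to -0.23. Genes ranged from -0.63 to -0.21, -0.0028 to 0.20, -0.012 to 0.19, -0.057 to 0.084 and -0.58 to -0.16. The mitochondrial percentage ranged in the 4 comparisons without the joined groups from -1.83 to 0.11, -0.65 to 1.29, -0.95 to 0.99 and -0.48 to 1.02. Vehicle against lean ranged from -0.0023 to 0.0048 for the S score, -0.0029 to 0.0078 for the G2M score and -0.54 to 0.025 for the ratio to GEC(Meis2+). sGCstim against vehicle ranged from -0.0049 to 0.0057 for the G2M score, -0.38 to 1.08 points for the share of endothelium, -0.084 to 0.24 for the ratio to GEC(Meis2+) and -0.093 to 0.24 for UMIs relative to other endothelial nuclei. The 3 obese groups against lean ranged from -0.0019 to 0.0033 for the G2M score and -0.60 to -0.036 for the ratio to GEC(Meis2+), and sGCact against vehicle from -0.38 to 0.33 for the ratio to SMC/Peri and -1.43 to -0.11 points for the share of endothelium. Differences passed in 2 comparisons of the share without RK16_4 and in 2 each of UMIs and genes without RK5_4, as given with those values. No other comparison passed with a rat left out.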
